A study of Homo sapiens with 6 samples.

Results

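GPAT3, PTPMT1, ACLY, ELOVL6, STARD4, DHCR7, AACS and CROT are 8 genes of fatty acid, sterol and glycerolipid metabolism, measured here in human cells depleted of the RNA-binding protein LIN28B. They were picked by name, with results of the depletion known, from 11584 genes read on the arrays. Each of the 8 was read by a single probe set annotated to it alone, a probe set being the group of short oligonucleotides that reads a transcript. For PTPMT1, 1 further probe set was annotated also to a neighbouring gene. Not all 8 are synthesis enzymes: STARD4 encodes a sterol carrier and CROT an enzyme of fatty acid breakdown.

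The 6 arrays are Affymetrix Human Genome U133 Plus 2.0, with 2 in each of 3 groups. All cells were HEK293 T-REx Flp-In, a human embryonic kidney line, here carrying a FLAG/HA-tagged LIN28B gene that doxycycline switches on. LIN28B knockdown cells were transfected with siRNA against LIN28B and their transgene was not induced. Mock induced cells were mock transfected with the transgene induced, and mock not induced cells were mock transfected without induction. The protocols give 250 ng/ml doxycycline for 15 to 20 h before crosslinking, but no time for the cells on the arrays. No non-targeting siRNA is among these groups, so the siRNA transfection and the loss of LIN28B cannot be told apart. Nothing in the labels says whether replicates came from separate cultures or whether the line is 1 clone, so intervals and p-values cover the spread among these 6 arrays alone, part or all of which may be technical. In RNA from whole cultures, fewer cells that express a gene and less RNA per cell cannot be told apart.

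Values are log2 after GCRMA, which corrects background by probe sequence, brings arrays to a common distribution and summarises each probe set. Array medians lay between 7.13 and 7.18. Arrays of a group had a Pearson correlation over all probe sets of 0.99 to 0.994, and knockdown with mock arrays of 0.97 to 0.975. Mock induced with mock not induced arrays had 0.992 to 0.994, so these groups were as alike as arrays within a group. LIN28B, the targeted transcript, averaged 7.52 ± 0.02 in knockdown cells, 10.13 ± 0.02 in mock induced cells and 9.94 ± 0.12 in mock not induced cells (SD, n = 2 each), so it was lower in the cells given siRNA. Of 6 markers of HEK293 cells, 5 were in the table, and between knockdown and mock not induced cells INA and KRT8 rose, VIM and NEFL fell and KRT18 did not pass. Of 17 markers of hepatocytes, adipocytes, macrophages and fibroblasts, 4 were in it (TTR, LPL, CIDEC and COL1A1), and 0 of those 4 passed that test (limma adjusted p between 0.40 and 0.87).

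Cells make fatty acids and sterols from acetyl-CoA in the cytosol. The citrate lyase encoded by ACLY supplies it, fatty acid synthase and the elongases build and lengthen the chains, and the mevalonate pathway leads to cholesterol, whose last step DHCR7 can carry out. Acyl chains are then joined to glycerol phosphate to make triglycerides and phospholipids, or are broken down in mitochondria and peroxisomes. Transcription of many of these genes is raised by the SREBP factors when sterols are low, often together with the factor NF-Y, which binds the CCAAT box.

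The promoters were looked at for the letters such factors are known to bind, because sterol and fatty acid genes are known to share them. RefSeq windows of 300 bases on GRCh38.p14, from 250 bases before the start site, were found for all 8 genes, in 11 windows. The CCAAT box (CCAAT, either strand) was found in 4 of the 8 genes, and in 39.7% of all 27305 genes with such a window. The GC box (GGGCGG, either strand) was in all 8, against 48.3% of all genes. Lists of other lipid genes, described further on, also held it more often than all genes did, in 12 of 14 genes with a window for sterol synthesis as well as for sterol regulation and transport, and in 18 of 20 for fatty acid synthesis. The counts were 23 of 27 for glycerolipids and phospholipids, 12 of 13 for acyl-CoA and ketone bodies and 20 of 24 for fatty acid oxidation. For every motif, the 8 and the lists hold only genes read on the arrays, while the share is over all genes with a window. These sets are unlike, and a share over the genes read on the arrays was not computed. The CACGTG form of the E-box was in 1 of the 8, against 8.77%. The sterol regulatory element written as TCACNCCAC, in either strand, was in 0 of the 8, against 1.39%. It was also rare in the other lipid lists, in 0 of 14 genes for sterol synthesis and 1 of 14 for sterol regulation and transport. For fatty acid synthesis it was in 0 of 20, for glycerolipids and phospholipids in 0 of 27. For acyl-CoA and ketone bodies it was in 1 of 13, and for fatty acid oxidation in 0 of 24. Letters this rare cannot show whether the 8 genes hold sterol elements of another spelling. These motifs do not contain one another, although single matches may lie side by side. The windows were rich in G and C, with 9 of the 11 above the median of 58.7% over all windows, and a GC-rich window holds the GC box more readily. The 4 genes with a CCAAT box each held 2 of them in the window printed here. These windows are printed since the boxes are what STARD4, DHCR7, ACLY and CROT share. A gene was counted where any of its windows held the letters. The other DHCR7 window held none of the motifs. The other ACLY window overlaps the printed one and holds the same CCAAT boxes. Capitals mark CCAAT or its reverse complement ATTGG.
STARD4 (chr5:111512486-111512785, minus strand): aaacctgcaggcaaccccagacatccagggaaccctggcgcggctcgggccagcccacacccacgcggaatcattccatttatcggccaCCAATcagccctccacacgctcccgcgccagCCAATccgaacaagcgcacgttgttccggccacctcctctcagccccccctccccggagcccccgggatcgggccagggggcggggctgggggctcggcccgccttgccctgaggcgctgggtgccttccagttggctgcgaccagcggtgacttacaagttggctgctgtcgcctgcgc
DHCR7 (chr11:71448344-71448643, minus strand): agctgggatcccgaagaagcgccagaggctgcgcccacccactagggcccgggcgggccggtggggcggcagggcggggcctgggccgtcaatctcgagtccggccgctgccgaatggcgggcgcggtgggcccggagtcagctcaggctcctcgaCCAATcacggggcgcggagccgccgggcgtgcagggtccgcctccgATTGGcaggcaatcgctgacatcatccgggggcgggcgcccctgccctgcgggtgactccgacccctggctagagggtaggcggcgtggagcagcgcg
ACLY (chr17:41918973-41919272, minus strand): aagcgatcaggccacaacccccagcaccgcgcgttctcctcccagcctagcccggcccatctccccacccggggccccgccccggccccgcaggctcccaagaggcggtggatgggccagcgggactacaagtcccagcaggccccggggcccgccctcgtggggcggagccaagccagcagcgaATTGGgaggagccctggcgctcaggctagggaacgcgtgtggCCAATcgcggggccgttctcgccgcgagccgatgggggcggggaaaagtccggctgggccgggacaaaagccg
CROT (chr7:87345414-87345713, plus strand): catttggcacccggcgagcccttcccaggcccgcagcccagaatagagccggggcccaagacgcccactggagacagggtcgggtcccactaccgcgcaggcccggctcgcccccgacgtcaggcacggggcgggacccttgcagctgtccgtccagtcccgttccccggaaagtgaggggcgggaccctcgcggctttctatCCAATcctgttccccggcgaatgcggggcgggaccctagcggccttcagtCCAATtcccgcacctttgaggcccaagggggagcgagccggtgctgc
The first 3 of these genes were lower and CROT was higher in knockdown cells. The 8 were chosen with these directions known and only CROT rose, so a link between CCAAT letters and direction was not tested. In the lists of other lipid genes described further on, the CCAAT box was held by 12 of 14 genes with a window for sterol synthesis and by 7 of 14 for sterol regulation and transport. It was held by 12 of 20 for fatty acid synthesis, 11 of 27 for glycerolipids and phospholipids, 6 of 13 for acyl-CoA and ketone bodies and 5 of 24 for fatty acid oxidation. A match says only that the letters are present.

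**Figure D1:**
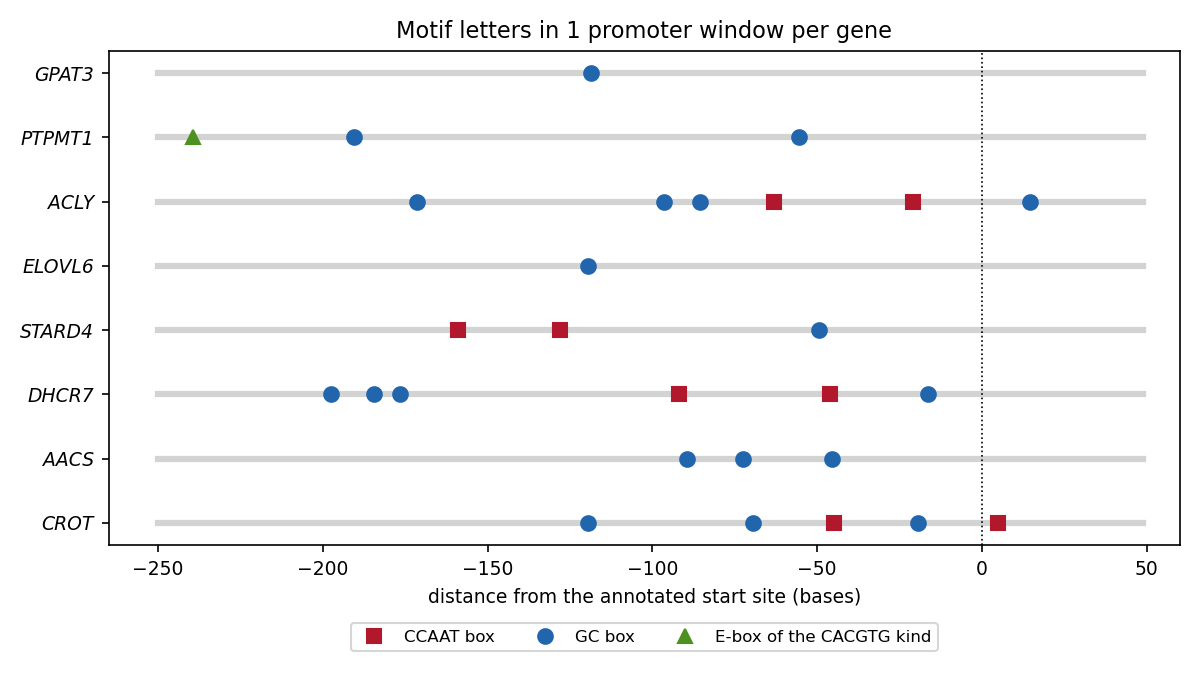
Distance in bases from the annotated start site (x axis) of each motif match in 1 RefSeq window per gene (rows), for CCAAT box (squares), GC box (circles) and the CACGTG E-box (triangle). ACLY, STARD4, DHCR7 and CROT each show 2 CCAAT boxes, and the other 4 genes show none.

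Between knockdown and mock not induced cells, the question was what depleting LIN28B does to the transcripts of the cell. Of the 8 genes, 7 were lower in knockdown cells and CROT was higher. The 8 were chosen with this comparison in view, so the values that follow describe it and are not tests. All 8 were called by limma (adjusted p under 0.05 over all genes), 7 lower and 1 higher, where 14.5% of all genes were called lower and 13.5% higher. For all 8 the knockdown arrays did not overlap the mock not induced arrays, where 30.9% of all genes were lower without overlap and 31.7% higher. Nothing is read from these counts, since the choice of genes fixed them. For the same reason, a call kept below with an array left out is no sign of stability. The calls of GPAT3, PTPMT1, ACLY, STARD4 and CROT held when any 1 array was left out. ELOVL6 and AACS lost theirs without knockdown replicate 1, and DHCR7 and AACS without knockdown replicate 2. ELOVL6 also lost it without mock not induced replicate 1, and AACS without mock not induced replicate 2 and without the intensity trend in limma.

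GPAT3 encodes an acyltransferase of the endoplasmic reticulum that adds the first acyl chain to glycerol phosphate. It read 5.34 and 4.99 in knockdown cells, 7.31 and 7.31 in mock induced cells and 7.46 and 7.26 in mock not induced cells. Both knockdown arrays were far below all 4 mock arrays. The knockdown minus mock not induced difference was -2.20 on the log2 scale (SE 0.15), which leaves 21.8% of the mock level. The knockdown values are near the low end of the scale, where GCRMA's background step has the most influence, and the probe set is of the _s_at kind, which can pick up related transcripts. PTPMT1 encodes a mitochondrial phosphatase that makes phosphatidylglycerol on the way to cardiolipin, the phospholipid of the inner membrane. It read 6.04 and 6.05 in knockdown cells, 8.14 and 8.03 in mock induced cells and 7.99 and 7.88 in mock not induced cells. The difference from mock not induced cells was -1.89 (SE 0.10), or 26.9% of the mock level. The knockdown arrays differed from each other by less than the arrays of either mock group did.

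The further probe set annotated to both PTPMT1 and KBTBD4 did not show this. It read 7.15 and 7.44 in knockdown cells, 7.64 and 7.32 in mock induced cells and 7.56 and 7.19 in mock not induced cells, so the groups overlap. Its knockdown minus mock not induced difference was -0.08 (95% interval -0.44 to 0.28, limma over all probe sets, adjusted p = 0.764). The transcript accession given for it belongs to KBTBD4, an adaptor of a ubiquitin ligase, in the RefSeq table, and the genes overlap on chromosome 11. The lower PTPMT1 reading thus rests on 1 probe set.

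ACLY and ELOVL6 act in fatty acid synthesis. ACLY, which cleaves citrate into acetyl-CoA and oxaloacetate, read 9.04 on both knockdown arrays, 9.42 and 9.64 in mock induced cells and 9.46 and 9.68 in mock not induced cells. The knockdown arrays lay below all mock arrays, and the difference from mock not induced cells was -0.53 (SE 0.10). ELOVL6, which lengthens long-chain fatty acids, read 5.91 and 6.17 in knockdown cells, 6.57 and 6.68 in mock induced cells and 6.74 and 6.53 in mock not induced cells. Its difference was -0.60 (SE 0.14), with 66.1% of the mock level left. AACS joins acetoacetate to coenzyme A in the cytosol, feeding ketone bodies into lipid synthesis. It read 7.54 and 7.43 in knockdown cells, 7.81 and 8.03 in mock induced cells and 7.83 and 7.87 in mock not induced cells. Its difference of -0.36 (SE 0.11) was the smallest of the 8, and still larger than the gap between arrays within any group.

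DHCR7 and STARD4 belong to sterol synthesis and transport. DHCR7, the reductase of the last step to cholesterol, read 7.68 and 7.51 in knockdown cells, 8.03 and 8.05 in mock induced cells and 7.94 and 8.29 in mock not induced cells. Its mock not induced arrays were the furthest apart among the 8 genes in that group. The difference from them was -0.52 (SE 0.12). STARD4, which carries sterols between membranes, read 7.96 and 8.05 in knockdown cells, 8.59 and 8.63 in mock induced cells and 8.68 and 8.53 in mock not induced cells. Its difference was -0.60 (SE 0.09), with 66.1% of the mock level left.

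CROT stood apart in direction. It encodes the peroxisomal carnitine octanoyltransferase, which passes shortened acyl chains to carnitine for export from the peroxisome. It read 8.13 and 8.40 in knockdown cells, 6.58 and 6.44 in mock induced cells and 7.02 and 7.06 in mock not induced cells. The knockdown arrays were highest and the mock induced arrays lowest, with no overlap between any of the groups. The difference between knockdown and mock not induced cells was 1.22 (SE 0.12), a 2.34-fold higher level. GPAT3, ACLY, DHCR7 and AACS were read by probe sets of the _s_at kind, and PTPMT1, ELOVL6, STARD4 and CROT were not.

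**Figure D2:**
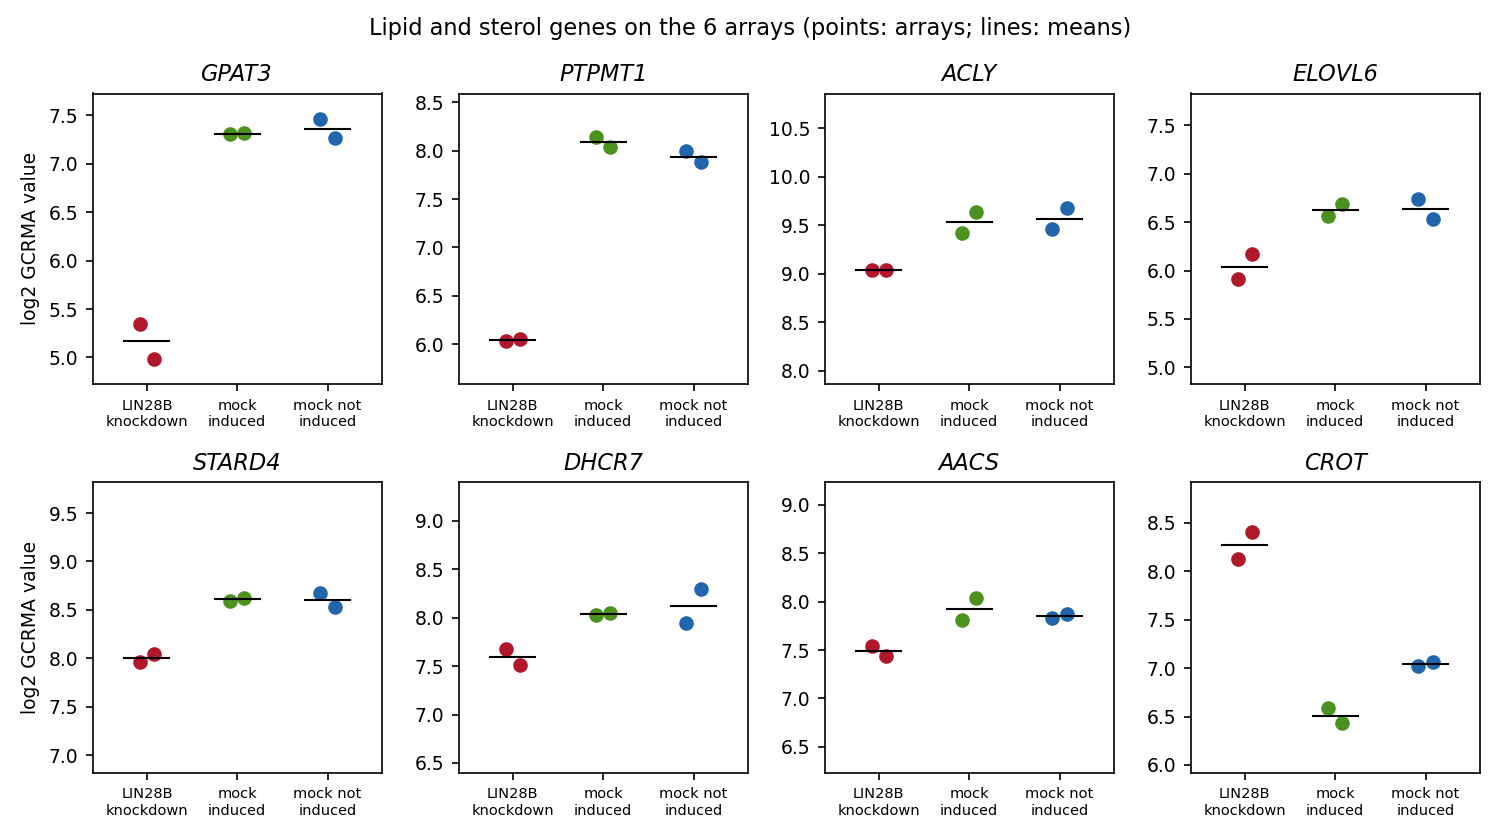
Log2 GCRMA value (y axis, spanning the same number of units in each panel) of the 8 genes on every array, by group (x axis). Points are arrays and lines are the means of 2 arrays. The knockdown points lie below all mock points in 7 panels and above them for CROT.

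Set against mock induced cells, which share the knockdown arrays with the comparison above and so are no separate evidence, the 8 genes read as follows. The knockdown minus mock induced difference was -2.14 for GPAT3, -2.04 for PTPMT1, -0.49 for ACLY and -0.59 for ELOVL6. It was -0.61 for STARD4, -0.45 for DHCR7, -0.43 for AACS and 1.76 for CROT, with SEs between 0.09 and 0.15. The knockdown and mock induced arrays did not overlap for any of the 8, with 7 lower and 1 higher, where 33.1% of all genes were lower without overlap and 34.9% higher. Limma called 3295 genes in this comparison (28.4%). All 8 were called, and 5 were without mock induced replicate 2, when ELOVL6, DHCR7 and AACS lost the call. DHCR7 lost it also without either knockdown array, without mock induced replicate 1 and without the trend, ELOVL6 without knockdown replicate 1 and AACS without knockdown replicate 2. With 1 array left out at a time, the difference of DHCR7 moved most in proportion, with -0.35 without mock not induced replicate 2 and -0.70 without replicate 1, in the comparison with those cells.

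Induction of the tagged LIN28B in mock-transfected cells was a separate question, and this contrast did not choose the genes, although it shares the mock not induced arrays with the one that did. The LIN28B transcript itself was 0.19 higher on the log2 scale in mock induced cells (1.14-fold, limma unadjusted p = 0.0349 and adjusted p = 0.999), so it did not pass here and the arrays do not show the induction by this test. Whether the probe set reads the transgene's transcript was not tested. None of the 8 passed the test either. Limma called 0 of all 11584 genes here (0%), with 344 (2.97%) at an unadjusted p under 0.05, and the adjusted p was 0.999 for each of the 8. ACLY, ELOVL6, STARD4, DHCR7, AACS and GPAT3 had mock induced minus mock not induced differences between -0.08 and 0.07. Their 95% intervals together ran from -0.38 to 0.31. PTPMT1 had 0.15 (95% interval -0.08 to 0.38) and its arrays did not overlap. CROT had the largest of the 8, at -0.53 (95% interval -0.80 to -0.26, unadjusted p = 0.00155 and adjusted p = 0.999 by limma), and both mock induced arrays were below both mock not induced arrays. PTPMT1 and CROT were thus 1 gene higher and 1 lower without overlap, where 13.5% of all genes were higher and 14% lower without overlap.

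**Figure D3:**
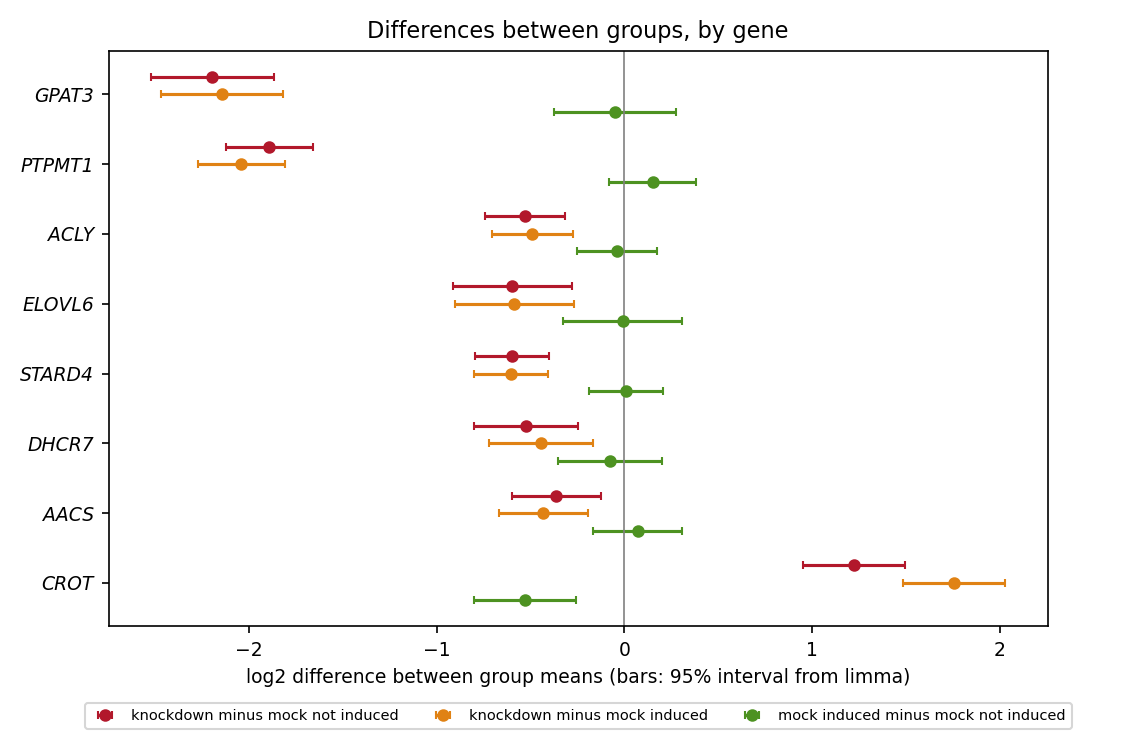
Log2 difference between group means (x axis) for each gene (rows), with bars for the 95% interval from limma, in 3 comparisons that share arrays. The mock induced minus mock not induced differences lie near 0 for 7 genes, and CROT has -0.53.

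For each of the 8, the gene with the most like pattern was sought as the smallest root mean square difference of log2 values over the 6 arrays, after centring on the mock not induced mean. Among 11576 other genes, KCTD12, which encodes a GABA-B receptor subunit of the auxiliary kind, was nearest to GPAT3 (0.16 log2 units) and TRIQK nearest to PTPMT1 (0.09). The antisense transcript MCM3AP-AS1 was nearest to STARD4, followed by GHITM, both at 0.03. FHOD3, an actin regulator, was nearest to ACLY, HERPUD2 to ELOVL6, PPDPF to DHCR7 and WASIR2 to AACS, all at 0.04 to 0.05. The amino acid and neurotransmitter transporter gene SLC6A13 was nearest to CROT (0.12), followed by the glucose transporter gene SLC2A3 (0.23). With 6 arrays in 3 groups such likeness is a description.

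Other genes of lipid metabolism were looked at in 6 lists, leaving out the 8. Of 133 such genes in the table, 12 rose, 33 fell and 88 did not pass in knockdown against mock not induced cells (limma, adjusted p under 0.05), so 33.8% were called, against 28% of all genes. Their median log2 difference was -0.14, against 0.01 over all genes. Without knockdown replicate 1 the counts were 7 higher and 21 lower, and the number called over all genes was 1664, against 3242 with it. In mock induced against mock not induced cells, 0 of the 133 passed, and their differences lay between -0.30 and 0.25.

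In the list for sterol synthesis, 1 of 16 genes rose, 3 fell and 12 did not pass, with a median of 0.07. TM7SF2, a sterol reductase, read 6.41 and 6.40 in knockdown cells and 7.03 and 6.97 in mock not induced cells, and fell by 0.59 (limma adjusted p = 0.00464). LSS, the cyclase that makes lanosterol, fell by 0.45, and GGPS1, which makes geranylgeranyl diphosphate, fell by 0.39. SC5D, the desaturase just before DHCR7 in the pathway, rose by 0.45. LSS and SC5D lost the call without knockdown replicate 1 (adjusted p = 0.0732 and 0.085). DHCR7 was thus lower beside a set of early mevalonate pathway genes that did not pass, among them HMGCS1 with 0.25, FDPS with -0.12 and IDI1 with -0.09 (which passed with quantile-normalized arrays, adjusted p = 0.0462), all picked after their values were seen.

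In the list for sterol regulation and transport, 3 of 17 genes rose, 2 fell and 12 did not pass, with a median of 0.03. ERLIN2, part of a protein degradation complex of the endoplasmic reticulum membrane, averaged 7.09 ± 0.08 in knockdown cells and 8.13 ± 0.04 in mock not induced cells and fell by 1.05 (SD, n = 2 each, limma adjusted p = 0.000123). MYLIP, a ubiquitin ligase induced by oxysterols, rose by 0.65, and RNF139, another ubiquitin ligase of the endoplasmic reticulum, rose by 0.49. NR1H3, which encodes the oxysterol receptor LXR-alpha, fell by 0.42, but lost the call when any 1 of the 6 arrays was left out (adjusted p between 0.0509 and 0.125). The SREBP genes did not pass. SREBF1 had -0.17 (95% interval -0.54 to 0.20, limma adjusted p = 0.492). For SREBF2 the difference was -0.11 (95% interval -0.40 to 0.18, limma adjusted p = 0.569). SREBF1 read between 5.56 and 6.03 over the 6 arrays, in the low part of the scale, so a change in it could be missed. INSIG1, which holds SREBPs in the endoplasmic reticulum and is itself an SREBP target, had 0.14 (limma adjusted p = 0.272).

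In the list for fatty acid synthesis, 1 of 23 genes rose, 5 fell and 17 did not pass, with a median of -0.17. ELOVL4, which makes very long-chain fatty acids, read 6.45 and 6.76 in knockdown cells and 7.92 and 7.83 in mock not induced cells, and fell by 1.28 (limma adjusted p = 0.000123). SLC25A1, which exports the citrate that ACLY cleaves from mitochondria, fell by 0.61. ME1, the malic enzyme that supplies NADPH for lipid synthesis, fell by 0.60, and MECR, a reductase of mitochondrial fatty acid synthesis, fell by 0.45. Without knockdown replicate 2 SLC25A1 and MECR lost the call (adjusted p = 0.0522 and 0.0753), and 3 genes of the list fell. ACACA, the carboxylase that makes malonyl-CoA, had -0.08 (limma adjusted p = 0.583), and fatty acid synthase, FASN, had -0.20 (adjusted p = 0.364). FASN was read by a probe set of the _x_at kind, which like the _s_at kind can pick up other transcripts.

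The list for glycerolipid and phospholipid synthesis, to which GPAT3 and PTPMT1 belong, had 4 of 36 other genes higher, 10 lower and 22 not passing, with a median of -0.15. Without knockdown replicate 1 these counts were 1 higher and 4 lower, and without knockdown replicate 2 there were 5 lower. LPCAT4, a lysophospholipid acyltransferase, read 5.41 and 5.53 in knockdown cells and 6.41 and 6.40 in mock not induced cells, and fell by 0.94 (limma adjusted p = 0.000844). Its knockdown values are near the low end of the scale, as those of GPAT3 are. AGPAT5, which acylates lysophosphatidic acid, fell by 0.75, and MBOAT1, another lysophospholipid acyltransferase, fell by 0.70. CDS1, which makes CDP-diacylglycerol, fell by 0.71 and lost the call without either knockdown array or without mock not induced replicate 1 (adjusted p between 0.0546 and 0.113). Other enzymes that start glycerolipid synthesis did not pass: GPAT4 had 0.07 (limma adjusted p = 0.70, picked after its value was seen), and GPAM, the mitochondrial form, had -0.30 (adjusted p = 0.0943). GPAM passed without mock not induced replicate 2, at -0.45 (limma adjusted p = 0.0216), and had -0.15 without replicate 1. Next to PTPMT1 in cardiolipin synthesis, PGS1 had -0.04 and CRLS1 had -0.12, neither passing (limma adjusted p = 0.856 and 0.408), and TAFAZZIN, which remodels cardiolipin, fell by 0.52 (adjusted p = 0.0326), a call lost under 6 of the 14 alternatives (adjusted p between 0.0503 and 0.213), among them leaving out knockdown replicate 1. These 3 were picked after their values were seen.

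The list for acyl-CoA and ketone body genes, which holds AACS, had 0 of 13 others higher, 3 lower and 10 not passing, with a median of -0.17. ACSL4, which activates polyunsaturated fatty acids, fell by 1.22 (limma adjusted p = 0.000628), with knockdown values of 4.45 and 4.55 in the lowest part of the scale, against 5.71 and 5.71 in mock not induced cells. OXCT1, which activates acetoacetate in mitochondria as AACS does in the cytosol, averaged 8.93 ± 0.06 in knockdown cells and 9.87 ± 0.04 in mock not induced cells and fell by 0.93 (SD, n = 2 each, limma adjusted p = 3.76e-05). ACAT1, the mitochondrial thiolase, fell by 0.29.

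The list for fatty acid oxidation had the highest share of calls of the 6, with 3 of 28 genes higher, 10 lower and 15 not passing, or 46.4% called, and a median of -0.19. Over all genes 28% were called, and the other lists ranged from 23.1% (acyl-CoA and ketone bodies) to 38.9% (glycerolipids and phospholipids). Fewer oxidation genes were called lower with any 1 array left out. The lists were chosen with earlier results known, so these shares are a description. PHYH, which starts the breakdown of phytanic acid in peroxisomes, fell by 1.18, and ABCD3, a transporter of the peroxisomal membrane, fell by 1.13. ACADM, the medium-chain acyl-CoA dehydrogenase of mitochondria, read 8.30 and 8.73 in knockdown cells and 9.68 on both mock not induced arrays, and fell by 1.16 (limma adjusted p = 0.000255). CPT1A, which loads long-chain fatty acids onto carnitine, averaged 6.91 ± 0.12 in knockdown cells and 6.16 ± 0.40 in mock not induced cells and rose by 0.75 (SD, n = 2 each, limma adjusted p = 0.0141). It lost the call without knockdown replicate 1 (adjusted p = 0.109) and without mock not induced replicate 1 (0.47, adjusted p = 0.0596). CROT was therefore higher in cells in which most called genes of its list were lower. Of the other carnitine acyltransferases, CPT2 fell by 0.59 (limma adjusted p = 0.00306), and CRAT had -0.22 and CPT1C 0.04, neither passing (adjusted p = 0.32 and 0.806). CPT2, CRAT and CPT1C were picked after their values were seen.

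**Figure D4:**
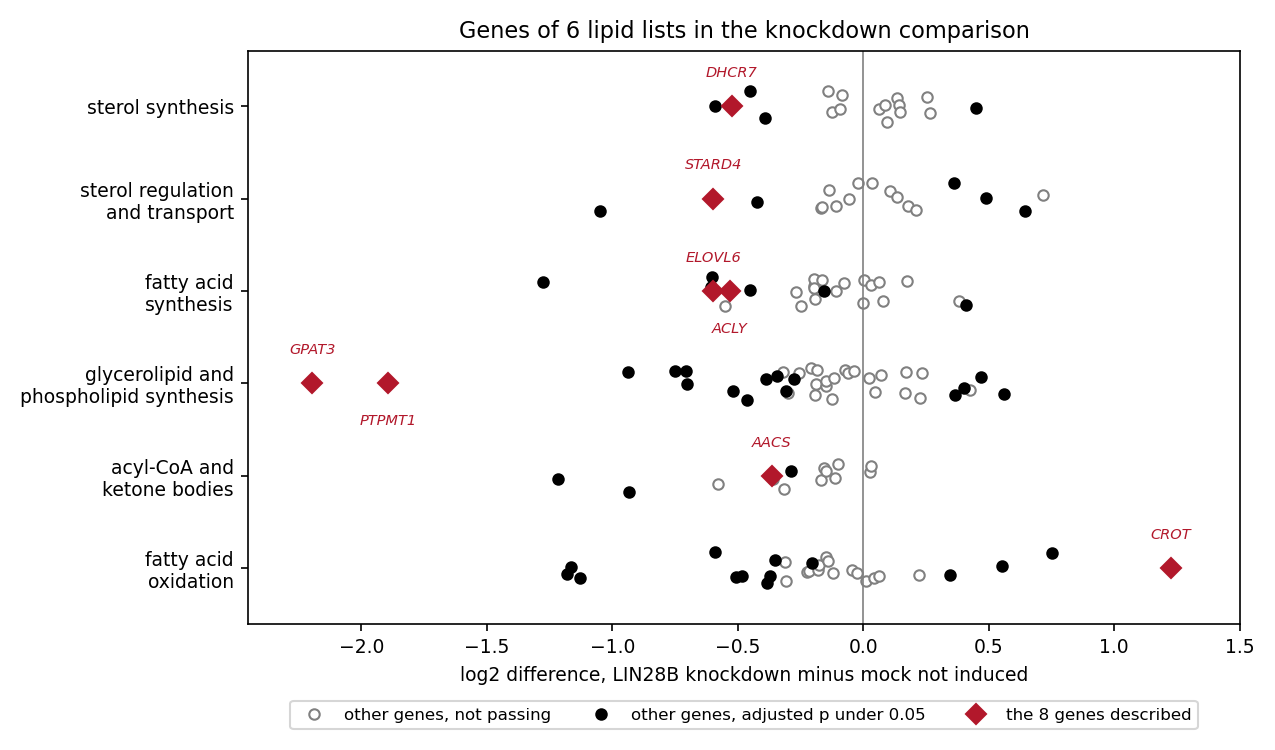
Log2 difference between knockdown and mock not induced cells (x axis) for the genes of 6 lipid lists (rows). Diamonds are the 8 genes described, filled circles other genes with a limma adjusted p under 0.05 and open circles other genes. GPAT3 at -2.20 and PTPMT1 at -1.89 lie left of all other genes, and CROT at 1.22 lies right of all others. The 8 were chosen with this comparison known, so their place among the other genes is a description.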

How the data were processed

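The authors' deposited values are log2 expression per probe set from 6 arrays, made with affy and GCRMA per the submitters' processing notes, which give no versions. The base of the logarithm was taken as 2, which GCRMA returns. The table holds 13008 probe sets, part of the array, chosen by a rule not given in the sources used here, so genes low on all arrays are largely not analysed. Probe sets were named from the platform annotation, with symbols updated by gene identifier to RefSeq GRCh38.p14. Of them, 11719 had 1 symbol, 609 several and 680 none. They gave 11584 genes, of which 11578 matched RefSeq, and for the 130 genes with several probe sets that with the highest mean was used. A filter (above 4 on at least 2 arrays) removed 0 probe sets.

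All genes were fitted in limma 3.58.1 (R 4.3.3, intensity trend, 1 model of 3 groups, two-sided tests, Benjamini-Hochberg adjustment), which was tested on simulated data. It left 3 residual degrees of freedom and added 6.73 prior ones. The number of arrays limits the precision. SDs are over 2 arrays. The 8 genes and the lists were chosen with earlier results of these data known. Named genes are the 8, LIN28B, up to 4 called genes of largest change in each list, and 10 regulatory genes where present. Others are marked as picked after their values were seen. Among the named list genes, FASN and IDI1 were read by probe sets of the _x_at kind. TM7SF2, SC5D, GGPS1, ERLIN2, MYLIP, INSIG1, SLC25A1, ME1, ACSL4 and CRAT were read by probe sets of the _s_at kind.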

Additional observations from a re-analysis of the deposited data

How the results depend on the processing

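Alternatives were median-centred or quantile-normalized arrays, no filter or a stricter one (above 6), the mean of probe sets, no intensity trend, only the 4 arrays compared, the replicate number as a block and leaving out each array. In the main fit 28% of all genes were called against mock not induced cells and 28.4% against mock induced cells. The signs of the 8 genes in the knockdown comparisons were fixed by their choice, which also favoured their calls. Neither the signs nor the calls of these 8 genes are a sign of stability. Between 6 and 8 of them were called against mock not induced cells, and between 5 and 8 against mock induced cells, over the 14 alternatives. In mock induced against mock not induced cells 0 of the 8 passed in any of them. With 1 array left out, the genes called ranged from 1664 to 3143 for knockdown against mock not induced, from 1702 to 3951 for knockdown against mock induced, and from 0 to 1 for mock induced against mock not induced cells. The lowest counts of the knockdown comparisons came without knockdown replicate 1. Without knockdown replicate 2 they were 1975 and 2068, and for knockdown against mock induced cells 1928 and 1811 genes were called without mock induced replicates 1 and 2. The count of 1 came without mock not induced replicate 2. With the replicate number as a block they were 3422, 3491 and 0, and 5 acyl-CoA and ketone body genes fell in place of 3. Same-numbered arrays deviated together at r = -0.06 (knockdown and mock not induced), 0.02 (knockdown and mock induced) and 0.18 (both mock groups), so the numbers were not taken to pair them. Without the trend 6 glycerolipid and phospholipid genes fell in place of 10, and ACAT1 lost its call (adjusted p = 0.0556). Detection calls were not analysed here, so whether the lowest values, such as those of GPAT3, LPCAT4 and ACSL4 in knockdown cells, exceed background was not tested.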
